A study of Mus musculus with 4 samples.

Results

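Ubiquitin-conjugating enzymes and deubiquitinases were followed in NKT cells after stimulation through their receptor. All gene symbols of the deposited count table that begin with Ube2, with Usp and a digit, with Uch, or with Otub or Otud were taken, and 1 matching symbol is not reported here. This gave 86 of 12020 genes, 30 of them in the E2 class (symbols beginning with Ube2) and 56 deubiquitinases. The rule used names only and no measured value.

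NKT cells stimulated by plate-bound mCD1d-PBS57 tetramers, in which mouse CD1d presents the lipid PBS57 (2 libraries), were set against NKT cells kept resting (2 libraries). NKT cells are T lymphocytes that recognise lipids presented by CD1d. Per the labels, both groups were GFP-high cells sorted from C57BL/6 mice of the line Va14 Tg.cxcr6gfp/+, aged 10 to 12 weeks, so stimulated and resting cells alike carried the receptor transgene and the GFP allele of Cxcr6. The labels give liver as tissue, while the protocols name livers or spleens for the sort and islets for RNA extraction, and they give neither the time in culture nor whether each library stands for a mouse of its own. The p-values below therefore rest on how far these libraries differ, and that difference may be technical in part. The test also pulls the spread of each gene towards that of all tested genes. A p-value is therefore no measure of the spread of that gene's own libraries alone. The libraries are called 4 and 5 after the column names, which do not match the replicate numbers of the titles.

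Ubiquitin is activated by an E1 enzyme, passed to the active-site cysteine of an E2 conjugating enzyme, and joined to a target with the help of an E3 ligase. Some E2 enzymes carry other small modifiers such as SUMO, NEDD8 or ISG15 instead. Deubiquitinases, among them the USP, UCH and OTU families, cut ubiquitin off again, trim chains or recycle ubiquitin at the proteasome. In T cells the balance between them tunes signalling to NF-kB, cell cycle progression, DNA repair and protein turnover.

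Libraries held 5495521 and 5398551 counts in tetramer libraries 4 and 5 and 4168438 and 4433048 counts in resting libraries 4 and 5. All 8 listed markers of NKT and T cells were detected in every library, of which Klrb1c and Cxcr6 were called lower, and their summed level was 2944 and 3793 CPM in the tetramer libraries and 3664 and 3507 CPM in the resting ones. CPM here are counts scaled to the library size after adjustment by TMM factors. Of 5 hepatocyte markers 1 was analysed here, at no more than 2.23 CPM. All 4 islet markers were detected, with a sum of 229 and 421 CPM in tetramer libraries 4 and 5 and 259 and 961 CPM in resting libraries 4 and 5. All 4 erythroid markers were detected, with a sum of 29.9 and 73.2 CPM in the tetramer libraries and 128 and 375 CPM in the resting libraries. Resting library 5 was the highest for both of these lists. Beside them, 4 of 5 B cell markers summed to 13.3 and 16.6 CPM in the tetramer libraries and 21.3 and 29.7 CPM in the resting ones, and 5 of 7 myeloid markers to 10.6 and 14.0 CPM in the tetramer libraries and to 25.9 and 32.9 CPM in the resting libraries. Of 4 endothelial markers Pecam1 was analysed here, at 13.0 ± 3.92 CPM in the tetramer libraries and 51.9 ± 32.6 CPM in the resting ones (SD, n = 2 each). The part of these other cells in the results below was not tested, and in bulk samples fewer cells of a type cannot be told apart from less RNA per cell.

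E2 class genes were called higher more often than lower after stimulation, and deubiquitinases were called in both directions. Calls are by edgeR's quasi-likelihood F test fitted to all genes, at an adjusted p below 0.05. All 30 E2 class genes passed the filter on low counts, and 6 were called higher and 1 lower. Of 56 deubiquitinases 53 passed the filter, and 6 were called higher and 4 lower. Over all 11312 tested genes, 14.3% were called higher and 12.1% lower, or 26.4% either way, beside 17 of the 83 members. The share called higher was 20.0% in the E2 class and 11.3% among deubiquitinases, and the share called lower was 3.33% and 7.55%, in that order. With 30 and 53 genes these shares rest on few calls, and the difference between the classes was not tested.

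The E2 class had a median log2 fold change (tetramer over resting) of 0.22 and the deubiquitinases one of -0.17, beside -0.06 for all tested genes. E2 class values ran from -1.30 (Ube2b) to 3.76 (Ube2cbp), with 18 of 30 above zero. Deubiquitinase values ran from -1.85 (Usp19) to 1.95 (Uchl5), with 24 of 53 above zero. Both tetramer libraries lay above both resting libraries for 12 E2 class genes and below them for 8. For deubiquitinases these counts were 16 and 14. Among all tested genes the groups did not overlap in these ways for 31.6% and 33.7%, or 65.2% either way. As shares of all deposited counts, the E2 class took 0.281% and 0.236% in the tetramer libraries and 0.299% and 0.261% in the resting libraries, which overlap. The deubiquitinases took 0.202% and 0.238% in the tetramer libraries and 0.359% and 0.262% in the resting libraries, which do not overlap. These shares use library totals, and both statements on overlap turned round on the TMM scale. There E2 class sums were 3163 and 2581.9 CPM in the tetramer libraries and 2580.5 and 2475.4 CPM in the resting ones, barely apart. Deubiquitinase sums were 2271.9 and 2596.9 CPM in the tetramer libraries and 3099.3 and 2476.9 CPM in the resting ones, with overlap.

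The calls, log2 fold changes and CPM above are relative to the TMM scaling, unlike the shares of counts. With library totals alone the median of all tested genes moved to -0.35, and the counts became 4 higher and 3 lower in the E2 class and 1 higher and 10 lower among deubiquitinases, where 10.5% of all genes were called higher and 19.9% lower. The median was then -0.0659 in the E2 class and -0.48 among deubiquitinases. The signs of both medians also turned with single libraries left out, to -0.0536 for the E2 class without tetramer library 4 and to 0.0929 for deubiquitinases without resting library 4. Tetramer library 4 also carried many calls. Without it, 2 E2 class genes (Ube2cbp and Ube2n) were called higher and 0 lower, and 1 deubiquitinase was called higher (Uchl5) and 1 lower (Usp19), where 5.33% and 2.68% of all genes were called. Without tetramer library 5, 5 and 0 E2 class genes and 2 and 3 deubiquitinases were called higher and lower, beside 9.89% and 5.75% of all genes. Without resting library 5 the deubiquitinases gave 3 higher and 7 lower, beside 13.9% and 10.5% of all genes. When a group is left with 1 library, that library is assumed to vary as the other group does.

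**Figure D1:**
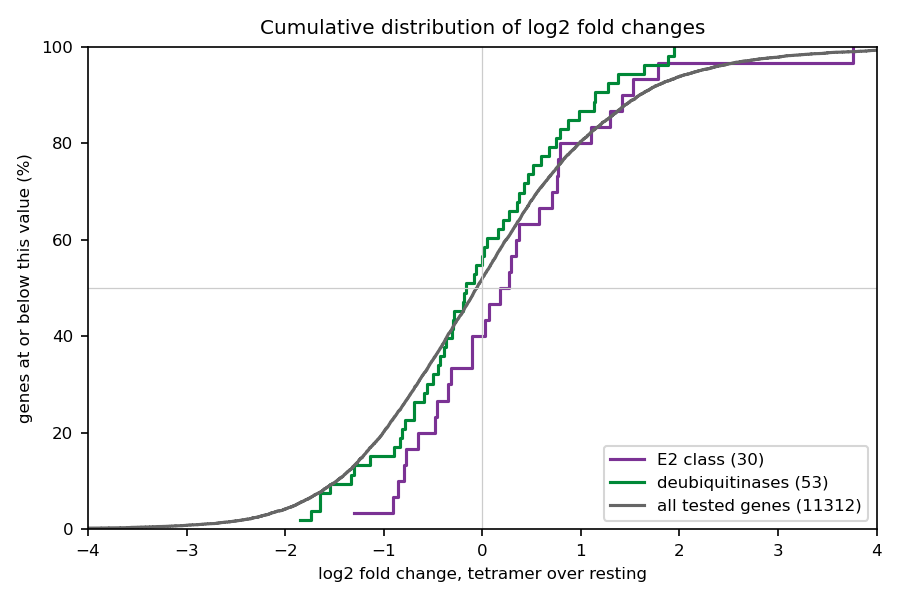
Cumulative share of genes, in percent, against log2 fold change (stimulated over rested cells) for 30 E2 class genes, 53 tested deubiquitinases and all 11312 tested genes. The E2 class curve crosses 50% at a median of 0.22, the deubiquitinase curve at -0.17 and the curve of all genes at -0.06; the horizontal axis is clipped at its ends.

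Among E2 enzymes of ubiquitin-like modifiers, the NEDD8 enzyme Ube2m was higher after stimulation. NEDD8 activates cullin-RING ligases, and Ube2m and Ube2f are its conjugating enzymes. Ube2m had 242 and 122 CPM in tetramer libraries 4 and 5, against 40.6 and 65.0 CPM in resting libraries 4 and 5. Tetramer library 4 was the highest and the groups did not overlap. The means were 182 ± 85.3 CPM after stimulation and 52.8 ± 17.2 CPM at rest (SD, n = 2 each), a fold of 3.45 (log2 fold change 1.78 ± 0.41 SE, edgeR adjusted p = 0.00203). The call was lost without tetramer library 4, where the log2 fold change was 1.22. Ube2f had 56.1 and 57.6 CPM in the tetramer libraries and 24.7 and 42.1 CPM in the resting ones, with no overlap, and was not called (edgeR adjusted p = 0.174). Nedd8 itself, the modifier, averaged 138 ± 27.6 CPM after stimulation and 57.3 ± 19.0 CPM at rest (SD, n = 2 each; edgeR adjusted p = 0.0160). Here and below, calls of genes outside the members were not followed gene by gene under other settings or with single libraries left out. Uba3 and Nae1, the subunits of the NEDD8 E1 enzyme, were not called, with log2 fold changes of 0.55 and -0.80.

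Ube2l6, which conjugates ISG15, was near the filter in all libraries, at 3.89 and 3.44 CPM after stimulation and 3.11 and 4.06 CPM at rest. The E1 enzyme of ISG15, Uba7, fell to 2.86 and 9.51 CPM in the tetramer libraries, against 32.7 and 31.6 CPM in the resting libraries. Its log2 fold change was -2.37 ± 0.55 (SE, edgeR adjusted p = 0.00258).

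Ube2n, the enzyme that builds K63-linked ubiquitin chains in signalling to NF-kB and in DNA damage tolerance, was higher in stimulated cells. It had 198 and 210 CPM in tetramer libraries 4 and 5, against 78.7 and 73.9 CPM in resting libraries 4 and 5. Each group spanned a narrow range and the groups lay well apart. The fold was 2.67 (log2 fold change 1.42 ± 0.37 SE, edgeR adjusted p = 0.00545), and Ube2n was called under all 12 alternatives, with log2 fold changes between 1.38 and 1.48 on leaving out each library in turn. Its 250 bases before the RefSeq transcript start (GRCm38.p6, chr10:95514912-95515161, plus strand) are shown because this E2 enzyme was called under every alternative. Capitals mark the match to the ETS core CCGGAAGT, searched on both strands, which begins at position -41 from the start.
Ube2n: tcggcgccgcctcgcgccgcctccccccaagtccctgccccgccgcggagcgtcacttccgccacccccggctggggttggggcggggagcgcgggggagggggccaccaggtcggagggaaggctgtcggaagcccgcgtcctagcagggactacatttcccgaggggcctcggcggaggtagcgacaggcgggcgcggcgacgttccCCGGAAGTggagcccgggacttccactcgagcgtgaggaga
The same letters occur in 7.10% of the 8592 tested genes that have a promoter in the RefSeq table.

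The partners that Ube2n needs for K63-linked chains, Ube2v1 and Ube2v2, lack the active-site cysteine, and neither was called. Ube2v1 had 315 and 261 CPM in the tetramer libraries and 120 and 234 CPM in the resting libraries. The groups did not overlap, resting library 5 being close to the tetramer libraries (log2 fold change 0.70 ± 0.38 SE, edgeR adjusted p = 0.174), and without resting library 5 Ube2v1 was called higher, at 1.29. Its exons overlap those of other annotated transcripts on the same strand, so its reads may be shared. Ube2v2 had 85.1 and 86.6 CPM in the tetramer libraries and 105 and 135 CPM in the resting libraries (log2 fold change -0.48 ± 0.37 SE). Within a library the ratio of 2 genes' counts does not depend on the scaling. The count ratio of Ube2n to Ube2v2 was 2.33 and 2.43 in the tetramer libraries and 0.752 and 0.546 in the resting libraries. The ratio of Ube2v1 to Ube2v2 was 3.7 and 3.02 in the tetramer libraries and 1.14 and 1.73 in the resting libraries. Both ratios were higher in both tetramer libraries than in either resting library. That order follows from the CPM values above, where Ube2n and Ube2v1 lay above and Ube2v2 below the resting libraries, and is no further result. The ratio of Ube2n to Ube2v1 overlapped between the groups, with 0.629 and 0.805 in the tetramer libraries and 0.657 and 0.316 in the resting libraries. Ratios were computed for 10 pairs, chosen with the values known, and are given without a test.

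Ube2b was the E2 class gene that was called lower. Ube2a and Ube2b encode near-identical proteins, the mammalian counterparts of yeast Rad6, which attach ubiquitin to histone H2B and to PCNA. Ube2b had 64.9 and 58.5 CPM in the tetramer libraries, against 169 and 136 CPM in the resting libraries. The groups did not overlap, and the means were 61.7 ± 4.53 CPM after stimulation and 152 ± 23.1 CPM at rest (SD, n = 2 each). The log2 fold change was -1.30 ± 0.37 (SE, edgeR adjusted p = 0.0106), and it ran from -1.43 to -1.13 with single libraries left out, where the call was lost without either tetramer library or without resting library 4. Ube2a had 45.4 and 26.9 CPM in the tetramer libraries and 31.3 and 27.8 CPM in the resting libraries. It overlapped between the groups, with a log2 fold change of 0.29 ± 0.44 (SE). The count ratio of Ube2a to Ube2b was 0.7 and 0.46 in the tetramer libraries and 0.186 and 0.204 in the resting libraries.

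The promoters of this pair are shown because the pair encodes nearly the same protein while the count ratio of its transcripts did not overlap between the groups. They are the 250 bases before a RefSeq transcript start in GRCm38.p6, for Ube2a at chrX:36874045-36874294, plus strand and for Ube2b at chr11:52000787-52001036, minus strand. Capitals mark the E-box CACGTG, which reads the same on both strands.
Ube2a: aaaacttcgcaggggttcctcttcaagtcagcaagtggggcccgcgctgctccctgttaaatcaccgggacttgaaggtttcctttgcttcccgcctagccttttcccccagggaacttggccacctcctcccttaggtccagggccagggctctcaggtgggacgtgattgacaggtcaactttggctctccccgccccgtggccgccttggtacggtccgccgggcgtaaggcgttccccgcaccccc
Ube2b: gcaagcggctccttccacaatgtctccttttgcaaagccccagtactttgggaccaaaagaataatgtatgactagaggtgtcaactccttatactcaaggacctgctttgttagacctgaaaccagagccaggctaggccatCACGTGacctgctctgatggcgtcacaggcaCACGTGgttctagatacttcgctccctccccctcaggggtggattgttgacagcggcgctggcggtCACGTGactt
The Ube2b sequence holds 3 matches, beginning at positions -107, -76 and -10, and the Ube2a sequence holds 0. Ube2b has 2 starts in the table, and the start whose window holds the matches was chosen. Of 8592 tested genes with a promoter, 9.97% hold at least 1 match and 12 (0.14%) hold 3 or more. The cutoff of 3 is the number found in Ube2b, itself among the 12, so this share is no test. Among members, the E-box occurred in 1 of 8 called higher that have a promoter and in 1 of 4 called lower. A match describes the letters and no binding.

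The E2 enzymes of the anaphase-promoting complex, which drives cells out of mitosis, gave 1 of 2 called, beside 26.4% of all tested genes. Ube2s, which extends chains on its substrates, had 80.2 and 31.6 CPM in tetramer libraries 4 and 5 and 15.95 and 22.7 CPM in resting libraries 4 and 5. The fold was 2.89 (log2 fold change 1.53 ± 0.47 SE, edgeR adjusted p = 0.0165). Tetramer library 4 stood above the rest, and without it the log2 fold change was 0.73 and not called. Ube2c, which starts the chains, had 10.0 and 10.9 CPM in the tetramer libraries and 9.32 and 30.1 CPM in the resting libraries. It was not called (log2 fold change -0.91 ± 0.55 SE). Resting library 5 alone was high. That library was also the highest for the islet and erythroid markers, whose part was not tested. Without resting library 4 Ube2c was called lower, at -1.51. Of 5 cycling cell markers 2 were analysed here, and both rose. Mki67 had 73.5 and 40.3 CPM in the tetramer libraries and 3.11 and 0.855 CPM in the resting libraries, and Top2a 101 and 56.8 CPM in the tetramer libraries and 4.14 and 10.0 CPM in the resting libraries.

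The UBE2D and UBE2E families are broad-range enzymes that work with many E3 ligases. Of their 5 members 1 was called, beside 26.4% of all tested genes. Ube2d3 had 302 and 148 CPM in tetramer libraries 4 and 5 and 108 and 102 CPM in resting libraries 4 and 5. Its fold was 2.15 (log2 fold change 1.10 ± 0.39 SE, edgeR adjusted p = 0.0352). The call was lost without tetramer library 4 (0.52), without either resting library, and when library totals set the scale. Limma-voom, a test against a fold of 1.5 and the library numbers as a replicate block also ended the call. Its close relative Ube2d2a had 180 and 169 CPM in the tetramer libraries and 233 and 202 CPM in the resting libraries, and was not called (log2 fold change -0.32 ± 0.36 SE). The count ratio of Ube2d3 to Ube2d2a was 1.68 and 0.88 in the tetramer libraries and 0.464 and 0.506 in the resting libraries, although reads of such close copies may have been split in the counting. That the ratio did not overlap follows from the CPM values, as Ube2d3 lay above and Ube2d2a below the resting libraries. An antisense transcript, 4930539J05Rik, overlaps an exon of Ube2d3. Ube2d1, Ube2e1 and Ube2e3 had log2 fold changes of -0.66, 0.79 and 0.37, with no call.

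Ube2cbp had the largest fold of all members. The pattern takes it by name, but its product was described in human cells as a partner of UBE2C that acts as an E3 ligase, so it is no E2 enzyme itself. Ube2cbp had 27.0 and 33.6 CPM in the tetramer libraries, against 1.66 and 2.78 CPM in the resting libraries, from 132 and 166 counts in the tetramer libraries and 8 and 13 counts in the resting libraries. Both tetramer libraries were far above both resting ones. The fold was 13.5 (log2 fold change 3.76 ± 0.59 SE, edgeR adjusted p = 4.02e-05). It was called under all 12 alternatives, and its log2 fold change ran from 3.45 to 4.19 with single libraries left out. With Ube2cbp set aside, 5 of 29 E2 class genes were higher and 1 lower, with a median log2 fold change of 0.17.

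The remaining called E2 enzyme was Ube2z, which is charged by the E1 enzyme Uba6. It had 53.4 and 35.8 CPM in the tetramer libraries and 22.4 and 13.9 CPM in the resting libraries, without overlap. The fold was 2.46 (log2 fold change 1.30 ± 0.45 SE, edgeR adjusted p = 0.0343). The call was lost without either tetramer library, without resting library 5, when library totals set the scale, and in a test against a fold of 1.5. Uba6 itself was at 4.91 and 3.44 CPM in the tetramer libraries and 3.94 and 3.63 CPM in the resting libraries.

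Ube2l3, which serves the linear chain assembly complex and RBR ligases, had 450 and 283 CPM in the tetramer libraries and 373 and 328 CPM in the resting libraries (log2 fold change 0.07 ± 0.37 SE). Ube2k, which makes K48-linked chains, was at 75.1 and 81.3 CPM in the tetramer libraries and at 58.0 and 46.8 CPM in the resting libraries (0.58 ± 0.38). Ube2h, known for its part in erythroid maturation, had 34.2 and 43.3 CPM in the tetramer libraries and 54.5 and 78.2 CPM in the resting ones (-0.78 ± 0.40), and its order of libraries was that of the summed erythroid markers, whose part was not tested. The cullin partner Ube2r2 was at 68.5 and 54.8 CPM in the tetramer libraries and at 81.2 and 88.3 CPM in the resting libraries (-0.46 ± 0.38), and the hybrid E2 and E3 enzyme Ube2o at 36.8 and 28.9 CPM in the tetramer libraries and at 24.0 and 30.3 CPM in the resting libraries (0.27 ± 0.44). None of these was called. The 4 enzymes of endoplasmic reticulum protein disposal, Ube2g1, Ube2g2, Ube2j1 and Ube2j2, had log2 fold changes from -0.85 to 0.34, with 0 of 4 called.

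**Figure D2:**
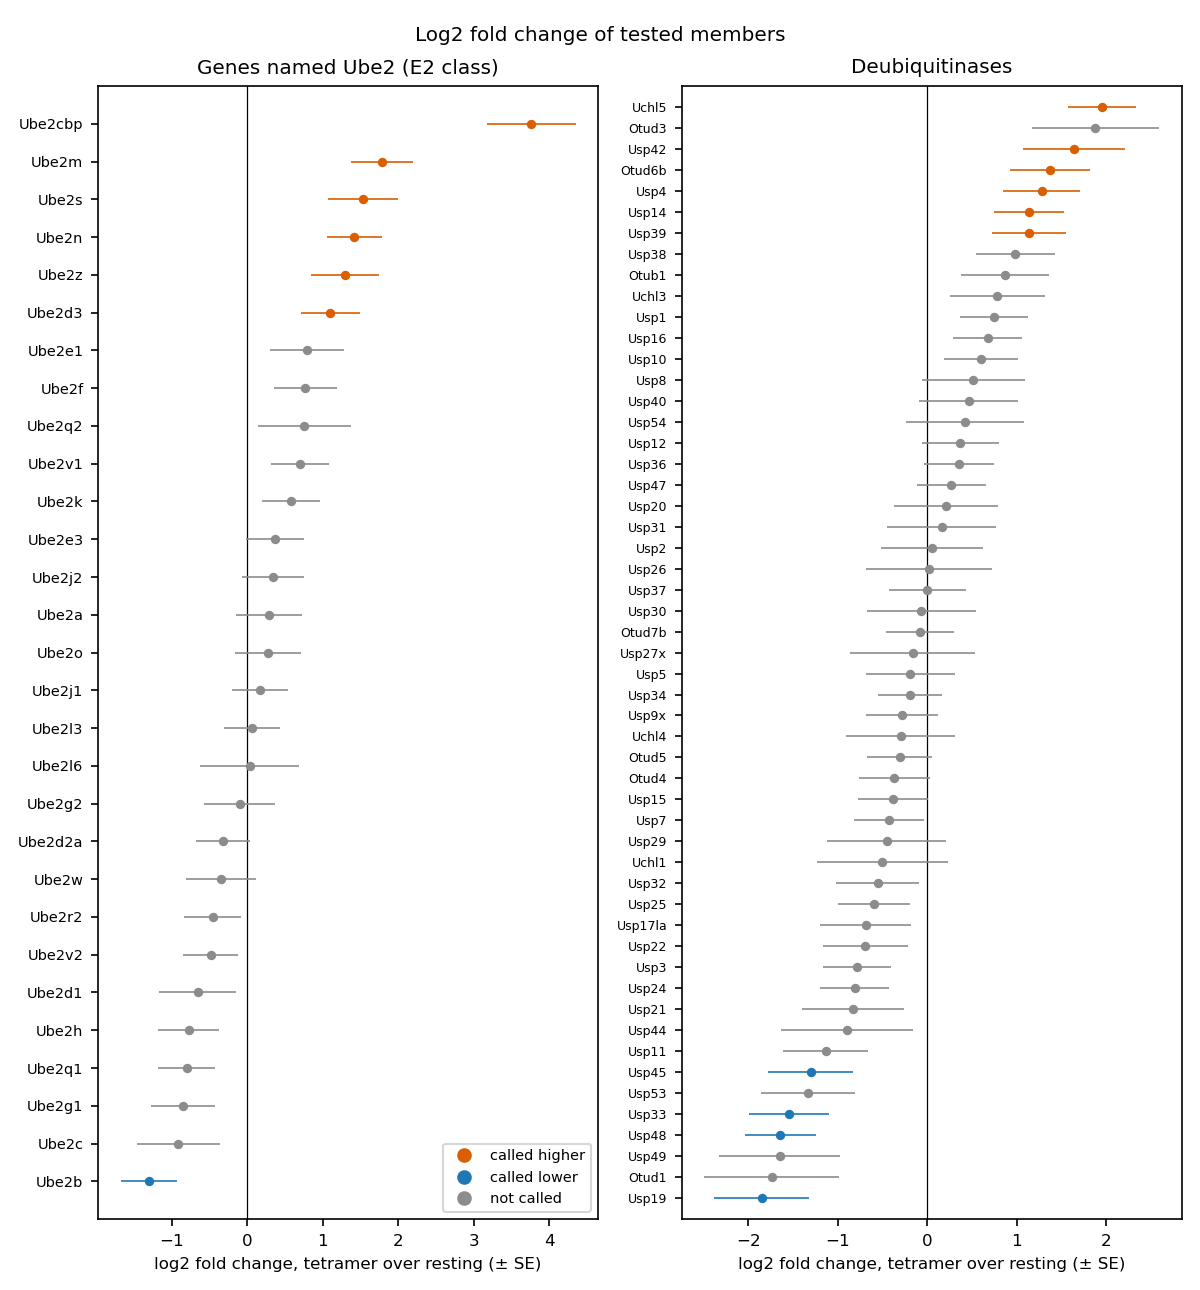
Log2 fold change of tetramer libraries over resting libraries, with its standard error for 29 of 30 E2 class genes (left) and 53 tested deubiquitinases (right), ordered by value. Orange points are called higher, blue points are called lower and grey points are not called, with 6 orange and 1 blue on the left and 6 orange and 4 blue on the right; the panels have different horizontal scales.

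Both members listed as deubiquitinases of the proteasome were called higher after stimulation, beside 14.3% of all tested genes. With 2 genes the difference from all genes was not tested. Uchl5 binds the proteasome through Adrm1, and Usp14 binds its regulatory particle, and both remove ubiquitin from bound substrates. Uchl5 had 234 and 171 CPM in tetramer libraries 4 and 5, against 57.6 and 47.2 CPM in resting libraries 4 and 5. The groups lay far apart. The fold was 3.86 (log2 fold change 1.95 ± 0.38 SE, edgeR adjusted p = 0.000480), and Uchl5 was called under all 12 alternatives, with log2 fold changes from 1.72 to 2.16 on leaving out each library in turn. Usp14 had 85.5 and 102 CPM in the tetramer libraries and 52.2 and 33.1 CPM in the resting libraries. Its fold was 2.20 (log2 fold change 1.14 ± 0.39 SE, edgeR adjusted p = 0.0325), and the call was lost without either tetramer library, without resting library 5, when library totals set the scale, and in a test against a fold of 1.5. An exon of Usp14 overlaps an exon of Thoc1 on the other strand in GENCODE vM21, and Thoc1 was not called (log2 fold change 0.24 ± 0.45 SE). The proteasome's own deubiquitinase Psmd14 averaged 69.5 ± 11.6 CPM after stimulation and 25.6 ± 6.66 CPM at rest, and Adrm1 419 ± 34.9 CPM after stimulation and 145 ± 9.72 CPM at rest (SD, n = 2 each; edgeR adjusted p = 0.0122 and 0.00319).

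The promoter of Uchl5 is shown because Uchl5 was the deubiquitinase called under every alternative. It lies at chr1:143777028-143777277, plus strand (GRCm38.p6, 250 bases before the RefSeq start).
Uchl5: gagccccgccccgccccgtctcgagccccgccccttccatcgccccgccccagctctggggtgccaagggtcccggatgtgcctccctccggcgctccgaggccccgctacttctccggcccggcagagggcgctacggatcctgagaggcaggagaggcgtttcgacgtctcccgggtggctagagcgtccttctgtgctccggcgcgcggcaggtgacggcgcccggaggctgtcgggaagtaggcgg
Searched on both strands, this window holds neither the E-box CACGTG nor the cyclic AMP element TGACGTCA, nor the ETS core CCGGAAGT, the CCAAT box or the NRF1 motif, so no letter is in capitals. It is rich in G and C, which make up 74.0% of it, where the median is 65.0% for 64 tested members with a promoter and 59.6% for tested genes. CCAAT occurs in 14 of these 64 members (21.9%) and in 40.6% of tested genes with a promoter. TGACGTCA occurs in 1 of the 64 (1.56%, against 3.18%) and the NRF1 motif in 0 (against 1.87%).

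**Figure D3:**
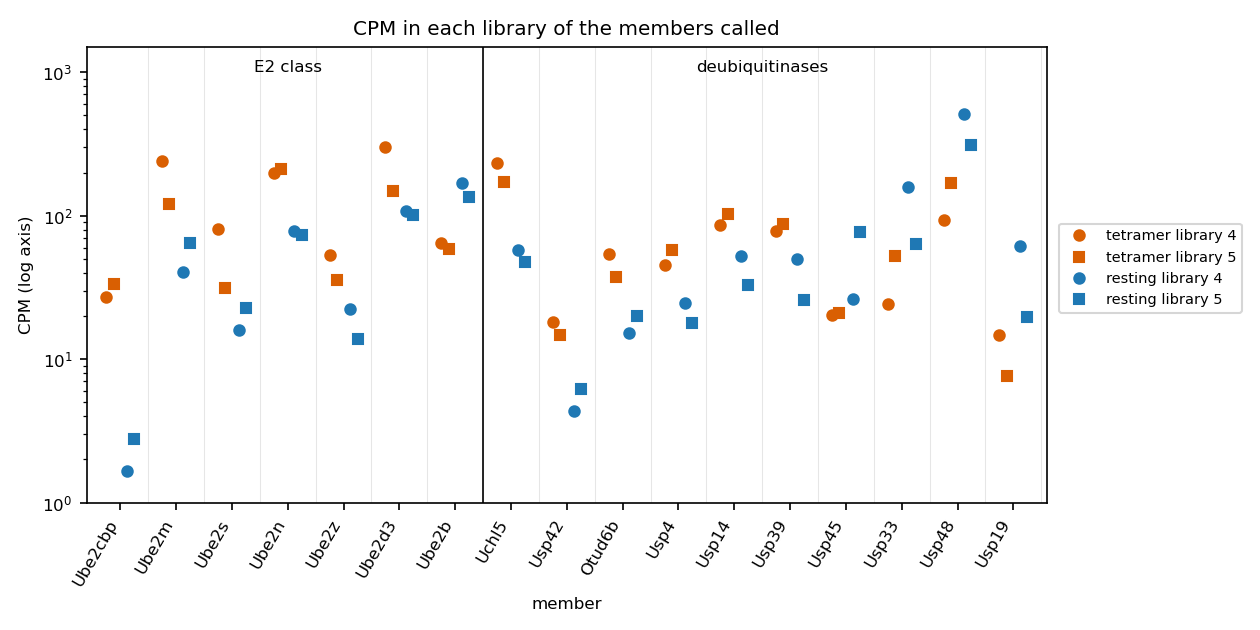
CPM on a log axis in each library for the 17 members called by edgeR, with tetramer libraries 4 and 5 in orange and resting libraries 4 and 5 in blue. The tetramer points lie above the resting points for 6 E2 class genes and 6 deubiquitinases and below them for Ube2b, Usp45, Usp33, Usp48 and Usp19.

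Among USP enzymes, 4 of 42 tested members were called higher and 4 lower, 9.52% each way beside 14.3% and 12.1% of all tested genes. Usp4, which acts on TGF beta receptors and on spliceosome proteins, had 45.2 and 57.2 CPM in the tetramer libraries and 24.4 and 17.7 CPM in the resting libraries. The fold was 2.43 (log2 fold change 1.28 ± 0.43 SE, edgeR adjusted p = 0.0290). The call was lost without either tetramer library, without resting library 5, when library totals set the scale, and in a test against a fold of 1.5. Its relatives of the same subfamily, Usp15 and Usp11, were not called. Usp15 had 71.4 and 119 CPM in the tetramer libraries and 86.6 and 162 CPM in the resting libraries, and Usp11 12.5 and 43.3 CPM in the tetramer libraries and 72.5 and 50.2 CPM in the resting libraries. The count ratio of Usp4 to Usp11 was 3.62 and 1.32 in the tetramer libraries and 0.337 and 0.353 in the resting libraries. That of Usp4 to Usp15 was 0.633 and 0.483 in the tetramer libraries and 0.282 and 0.109 in the resting libraries. Both ratios were higher in both tetramer libraries than in either resting library. For Usp11 that order follows from the CPM values, as Usp4 lay above and Usp11 below the resting libraries.

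**Figure D4:**
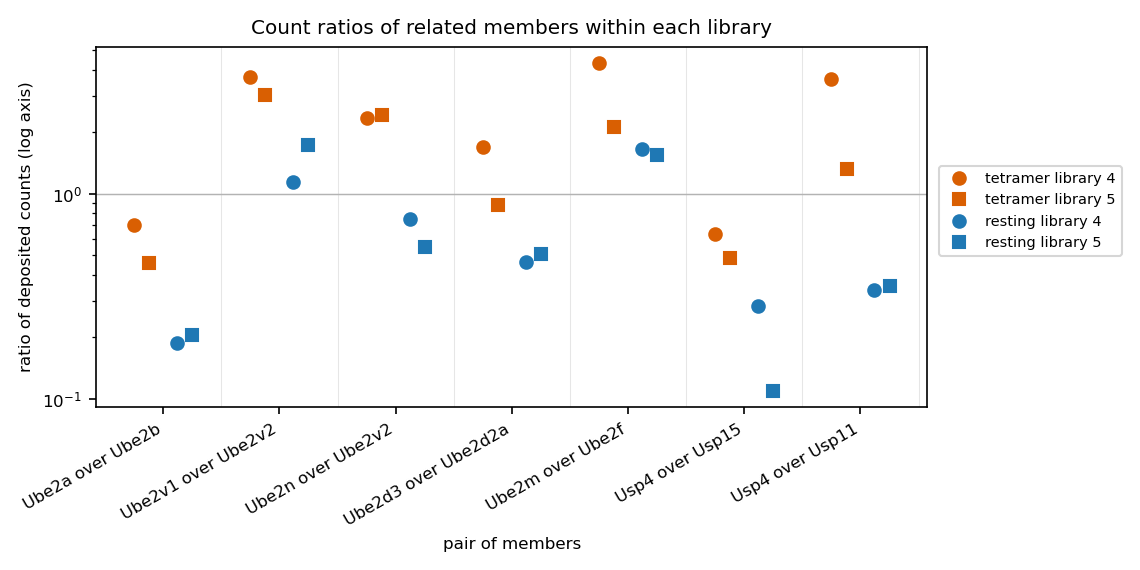
Ratio of deposited counts of 7 pairs of related members within each library, on a log axis, with tetramer libraries in orange and resting libraries in blue. In all 7 pairs both tetramer ratios lie above both resting ratios, as for Ube2a over Ube2b with 0.7 and 0.46 against 0.186 and 0.204. For Ube2v1 or Ube2n over Ube2v2, Ube2d3 over Ube2d2a and Usp4 over Usp11 this order follows from the CPM values of each gene. The pairs shown were chosen after the values were seen and leave out Ube2n over Ube2v1, whose groups overlap.

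Usp39, a catalytically inactive USP of the spliceosome, had 78.2 and 87.2 CPM in the tetramer libraries and 49.5 and 25.6 CPM in the resting libraries, a fold of 2.20 (log2 fold change 1.14 ± 0.41 SE, edgeR adjusted p = 0.0395). Usp42, a nuclear enzyme linked to p53 in human cells, had 18.2 and 14.8 CPM in the tetramer libraries and 4.35 and 6.20 CPM in the resting libraries, a fold of 3.12 (edgeR adjusted p = 0.0327). Both calls were lost without either tetramer library, when library totals set the scale, and in a test against a fold of 1.5, that of Usp39 also without resting library 5 and that of Usp42 without resting library 4. The other members of the nucleolar, splicing and stress granule group were not called. Usp36, the nucleolar enzyme, had 64.7 and 62.3 CPM in the tetramer libraries and 47.2 and 51.9 CPM in the resting libraries. Usp10, the partner of the stress granule protein G3bp1, had 82.5 and 45.7 CPM in the tetramer libraries and 41.4 and 43.2 CPM in the resting libraries, while G3bp1 itself was called higher, by 1.11 ± 0.36 (SE) on the log2 scale (edgeR adjusted p = 0.0243).

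Usp48 was called lower with the smallest adjusted p among the USP enzymes. It is a nuclear enzyme that acts on the NF-kB subunit RelA in human cells. It had 92.9 and 170 CPM in tetramer libraries 4 and 5, against 512 and 311 CPM in resting libraries 4 and 5. The groups did not overlap, and the means were 132 ± 54.6 CPM after stimulation and 411 ± 142 CPM at rest (SD, n = 2 each). The log2 fold change was -1.65 ± 0.40 (SE, edgeR adjusted p = 0.00339), and without tetramer library 4 it was -1.26 and not called. Usp48 was called lower under the other 11 alternatives.

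The other USP enzymes called lower each depended on single libraries. Usp33, which acts on the guidance receptor Robo1 and on the beta-2 adrenergic receptor, had 24.1 and 52.2 CPM in the tetramer libraries and 160 and 63.04 CPM in the resting libraries. Its log2 fold change was -1.54 ± 0.45 (SE, edgeR adjusted p = 0.0121), and the call was lost without resting library 4, where it was -0.71, or without tetramer library 4. Usp19, anchored in the endoplasmic reticulum, had 14.7 and 7.69 CPM in the tetramer libraries and 61.3 and 19.7 CPM in the resting libraries. Its log2 fold change was -1.85 ± 0.53 (SE, edgeR adjusted p = 0.0113), and the call was lost without resting library 4, where it was -0.79, or without tetramer library 5. Usp45, which acts on the DNA repair protein ERCC1 in human cells, had 20.5 and 21.0 CPM in the tetramer libraries and 26.1 and 76.5 CPM in the resting libraries. Resting library 5 alone was high. That library was also the highest for the islet and erythroid markers, whose part was not tested. Without resting library 5 the log2 fold change of Usp45 was -0.31 in place of -1.30, with no call. The call was also lost without either tetramer library, by DESeq2, by limma-voom and in a test against a fold of 1.5. Taking the library numbers as a replicate block ended it too.

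The 7 members listed here as deubiquitinases of histones were mostly at negative values, and none passed the test. The list was set by hand from known roles and need not hold every gene that acts on histones. Of 7 members, 6 had negative log2 fold changes, with a median of -0.79, and for 5 both tetramer libraries lay below both resting ones. Among all 11312 tested genes, 5884 had negative values and 33.7% lay below in the same way. With 7 genes the difference from all genes was not tested. Usp3 had 60.6 and 97.7 CPM in the tetramer libraries and 151 and 122 CPM in the resting libraries (log2 fold change -0.79 ± 0.38 SE, edgeR adjusted p = 0.120), and with library totals it was called lower. Usp22, the enzyme of the SAGA coactivator, had 13.9 and 16.8 CPM in the tetramer libraries and 23.4 and 26.3 CPM in the resting libraries (edgeR adjusted p = 0.291). Usp49, which acts on H2B, was at 2.66 and 2.02 CPM in the tetramer libraries and at 4.97 and 9.83 CPM in the resting libraries (edgeR adjusted p = 0.0706), and its exons overlap those of Tomm6, which was called higher (log2 fold change 1.56). Usp16, which removes ubiquitin from H2A, was the exception in sign within this list, at 90.4 and 65.9 CPM in the tetramer libraries and 50.8 and 47.2 CPM in the resting libraries. Its log2 fold change was 0.67 ± 0.39 (SE), and its exons overlap those of Cct8 on the other strand, a chaperonin gene called higher by 1.83 on the log2 scale.

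Usp1, which acts on FANCD2 and PCNA, had 85.5 and 85.8 CPM in the tetramer libraries and 53.7 and 48.5 CPM in the resting libraries. The groups did not overlap (log2 fold change 0.75 ± 0.38 SE, edgeR adjusted p = 0.146). Usp7, which stabilises Mdm2 and p53, had 106 and 164 CPM in the tetramer libraries and 241 and 122 CPM in the resting libraries, with overlap. Usp9x, which supports antigen receptor signalling, had 59.3 and 107 CPM in the tetramer libraries and 130 and 72.0 CPM in the resting libraries, also with overlap. Neither was called. Usp8, an endosomal enzyme, and Usp30, on the outer mitochondrial membrane, had log2 fold changes of 0.52 and -0.07, with no call. Usp12 and Usp5, the enzyme that recycles free chains, had values of 0.37 and -0.19, with no call.

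In the UCH family, 1 of 4 members was called, Uchl5, where 26.4% of all tested genes were called. Uchl3, which can process NEDD8 and ubiquitin precursors, had 27.6 and 11.5 CPM in the tetramer libraries and 11.4 and 11.3 CPM in the resting libraries, so that tetramer library 4 alone stood apart. Reads of Uchl3 and its close copy Uchl4 may not be told apart. Uchl1, the neuronal member, was at 0.818 and 2.43 CPM in the tetramer libraries and 2.07 and 2.56 CPM in the resting libraries.

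In the OTU family, 7 of 8 members were tested and 1 was called, where 26.4% of all tested genes were called. Otud6b, linked to protein synthesis in human cells, had 54.0 and 37.2 CPM in the tetramer libraries and 15.3 and 19.9 CPM in the resting libraries. The fold was 2.59 (log2 fold change 1.37 ± 0.45 SE, edgeR adjusted p = 0.0237), with the call lost without tetramer library 4, without resting library 4, when library totals set the scale, and in a test against a fold of 1.5. Otud3 lay just outside the threshold, at 4.50 and 5.66 CPM in the tetramer libraries and 1.86 and 0.855 CPM in the resting libraries (edgeR adjusted p = 0.0508). Otub1, which blocks Ube2n without cutting ubiquitin, had 30.3 and 19.8 CPM in the tetramer libraries and 10.98 and 16.5 CPM in the resting libraries, with no call (log2 fold change 0.87 ± 0.49 SE). Otud5 and Otud7b, regulators of signalling in immune cells, had log2 fold changes of -0.31 and -0.08. Otud1 was at 1.43 and 0.607 CPM in the tetramer libraries and at 4.56 and 2.35 CPM in the resting libraries (log2 fold change -1.74 ± 0.75 SE, edgeR adjusted p = 0.0860), and was called lower with library totals or without resting library 5. In all, 24 of the 86 members have an exon that overlaps another gene in GENCODE vM21, for 9 of them a gene of the count table, and reads of such pairs may be shared. Otub2, Usp28 and Usp46 did not pass the filter on low counts, and their highest level in any library was 3.94, 3.11 and 2.07 CPM.

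Other genes of the ubiquitin system gave 13 called higher (17.1%) and 6 lower (7.89%) of 76 tested, near the 14.3% and 12.1% of all genes, with a median log2 fold change of 0.30. Of 8 E1 subunits 1 was called, Uba7. Of 8 E2 enzymes or E2-like proteins with other names, Cdc34, the cullin partner, was higher (107 ± 27.1 CPM after stimulation and 41.4 ± 17.6 CPM at rest; SD, n = 2 each; edgeR adjusted p = 0.0136). Aktip and Uevld, which have the E2 fold without the active-site cysteine, were lower, with log2 fold changes of -1.63 and -1.53.

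Of 19 deubiquitinases with other names 5 were higher (26.3%) and 1 lower (5.26%), beside 14.3% and 12.1% of all tested genes. Besides Psmd14, the higher ones were Josd2 (log2 fold change 1.91), Josd1 (1.46), the linear chain enzyme Otulin (1.29) and Cops5, which removes NEDD8 from cullins (1.12). The member that fell was Cyld, which cuts K63-linked and linear chains and curbs NF-kB, at 109 and 142 CPM in the tetramer libraries and 329 and 250 CPM in the resting libraries (edgeR adjusted p = 0.0167). Tnfaip3, the A20 enzyme, was low in all libraries, at 2.05 and 2.83 CPM after stimulation and 3.73 and 2.35 CPM at rest. Of 29 genes listed as E3 ligases and adaptors, among them the modifier Nedd8, 4 were higher (Uhrf1, Skp1a, Traf2 and Nedd8) and 2 lower. That is 13.8% higher and 6.9% lower. The ones that fell were Peli1, a ligase that works with Ube2n, at 83.9 and 76.9 CPM in the tetramer libraries and 546 and 322 CPM in the resting libraries, and Birc2, at 9.62 and 9.91 CPM in the tetramer libraries and 134 and 33.5 CPM in the resting libraries. Of 8 partners of members 3 were higher (Adrm1, Pcna and G3bp1), or 37.5%, and 0 lower. In lists this short the shares rest on few calls, and their difference from all genes was not tested. Without tetramer library 4 the whole list of 76 gave 2 higher and 2 lower, where 5.33% and 2.68% of all genes were called. With library totals it gave 7 higher and 10 lower, beside 10.5% and 19.9% of all genes. Without resting library 5 it gave 15 higher and 10 lower, beside 13.9% and 10.5% of all genes.

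**Figure D5:**
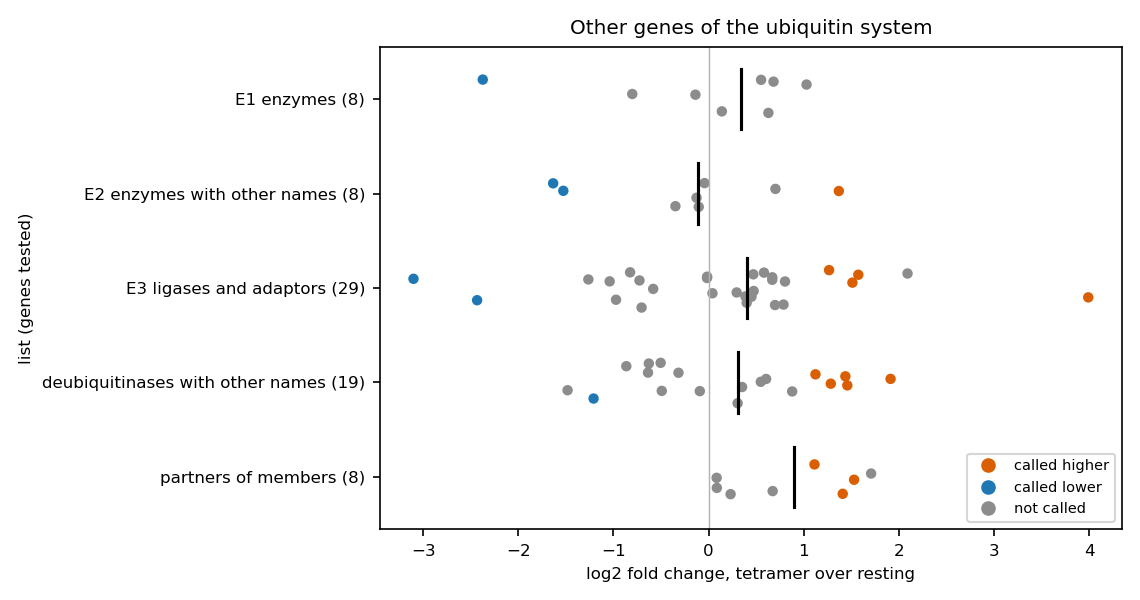
Log2 fold change of tetramer libraries over resting libraries for other genes of the ubiquitin system in 5 lists, with the number tested in parentheses, orange for called higher, blue for called lower, grey for not called and a black bar at each list's median. In all 13 genes are orange and 6 are blue; vertical scatter within a list has no meaning.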

How the data were processed

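RNA of sorted NKT cells was sequenced, with 23 cycles of PCR per the labels' protocols. The authors deposited raw read counts per gene symbol in 2 tetramer and 2 resting libraries. Per the submitters' processing notes, tools and build included Bowtie2, DESeq2 and mm9. The sources used here do not name the counting tool, its strand setting or its rule for shared reads. Columns show the group and a number, so they were matched to groups only, and 0 columns belonged to other series. The table lists 12021 genes with no count below 1, so genes at 0 in a library are not analysed here; 1 gene with a cell that is not a number was left out. Depth limits low genes: a gene at 1 CPM has only a few counts per library. No molecular identifiers are mentioned, so amplified copies of a molecule could each be counted.

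Counts were tested with edgeR 4.0.16 (R 4.3.3; default expression filter, TMM, quasi-likelihood F test, Benjamini-Hochberg over 11312 genes, threshold 0.05), without covariates and with 2 residual degrees of freedom. Because the test shares information on spread across genes, p-values do not rest on these 2 degrees of freedom alone. Common biological variation was 0.322. Standard errors come from the F statistic, and CPM means and SDs are over 2 libraries. Within groups the libraries differed beyond sampling noise of counts (chi-square over degrees of freedom of 28.0 in the tetramer pair and 30.9 in the resting pair). Libraries made from the same RNA could also differ in this way when amplified copies are counted. The value therefore does not show that the libraries come from different mice, though they were counted separately. Alternatives were DESeq2 1.42.0, limma-voom (limma 3.58.1), other scalings and filters, a minimum fold of 1.5, a replicate block, and each library left out.

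Members and lists were chosen with earlier results of these data known. Named members were fixed ones with known roles and, per class, up to 8 called rises and 8 called falls with at least 10 CPM on average and groups that did not overlap; all 17 called members qualified. Usp11, Usp49, Otud3, Usp46, Ube2e1, Ube2g1, Ube2j2, Uchl4 and genes outside the members were named after their values were seen. Exon overlaps came from GENCODE vM21 and promoters from RefSeq, both of GRCm38, which is not the build of the counts, so no coordinates of the counted genes are given. Values of some single genes are counted in the totals and not reported here. All 86 members matched GENCODE and 64 of 83 tested ones had a promoter.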

Additional observations from a re-analysis of the deposited data

How the results depend on the processing

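Of 204 values of the 17 called members under alternatives, 151 stayed called in the same direction, 53 were no longer called and 0 reversed. Of 428 values of named members that were not called, 5 became called and 25 changed sign without a call. Counts with library totals were 3 lower in the E2 class (median -0.0659), 1 higher and 10 lower among deubiquitinases (median -0.48), and 7 higher and 10 lower among the other genes of the ubiquitin system; the lower values follow from that scaling, which lowered the median of all genes to -0.35. Against a fold of 1.5, 1 deubiquitinase and 6 of the other genes were higher. A stricter filter at a mean of 5 CPM gave a deubiquitinase median of -0.0713. With single libraries left out, E2 class calls ran from 2 to 5 higher and 0 to 1 lower (median -0.0536 to 0.322), deubiquitinase calls from 1 to 5 higher and 1 to 7 lower (median -0.222 to 0.0929), and those of the other genes from 2 to 15 higher and 2 to 10 lower; the cause was not tested. Same-numbered libraries deviated from their group means with a correlation of 0.0486 across 11312 genes, so the numbers were not taken as pairs. With them as a replicate block, 5 E2 class genes were higher and 1 lower (median 0.19), 7 deubiquitinases were higher and 5 lower (median -0.13), and 15 of the other genes were higher and 7 lower. The block ended the calls of Ube2d3 (edgeR adjusted p = 0.0725) and Usp45 (edgeR adjusted p = 0.0520), and of no other called member.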
